A study of Homo sapiens with 4 samples.

Results

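The cytosolic heat shock response genes described here are HSF1 and 9 chaperone or cochaperone genes, HSPA1A, HSPA1B, HSPA8, HSPH1, BAG3, DNAJB1, DNAJA1, HSP90AA1 and HSP90AB1. They were taken by symbol from the 56271 rows of a table of read counts per gene, and all 10 were found, each in 1 row. When proteins misfold in the cytosol, the transcription factor HSF1 is released from the chaperones that hold it inactive, binds heat shock elements in the promoters of chaperone genes and raises their transcription. HSP70 proteins bind unfolded chains, J-domain proteins deliver those chains to HSP70 and stimulate its ATPase, nucleotide exchange factors reset it, and HSP90 takes over late folding of client proteins such as kinases and receptors. Unfolded protein in the endoplasmic reticulum (ER) is sensed by a separate pathway, the unfolded protein response, whose chaperones carry related names but are different genes.

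SKBR3 is an established human breast cancer line with amplified HER2 (ERBB2), and RNA sequencing compared SKBR3 cells that overexpress VIRMA, a scaffold subunit of the complex that writes N6-methyladenosine on RNA, with control cells. The eGFP control cells (2 libraries) carried a lentivirus that expresses eGFP, and the VIRMA-overexpressing cells (2 libraries) carried full-length HA-tagged VIRMA joined to eGFP through a p2A peptide in the same vector. Per the study's methods, cells of both groups were sorted for eGFP and expanded, so each group is a transduced population and not a clone, and the libraries are biological duplicates. The methods do not say whether the duplicates of a group come from separate transductions. Other differences between the transduced populations therefore cannot be told apart from VIRMA overexpression. The protocol text in the labels, the same for all 4 libraries, speaks of culture at very low oxygen and of protein extraction, whereas the study's methods describe that treatment for protein lysates and do not mention it for the RNA libraries, so the labels and the methods differ on the oxygen level. The comparison asks here whether genes of the cytosolic response moved together with the ER chaperones.

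The libraries held 81446932 to 86375474 counts, and the biological coefficient of variation estimated over the 12205 tested genes was 3.93%. VIRMA, listed as KIAA1429, had 710 and 682 counts in the control libraries and 3437 and 3460 in the VIRMA-overexpressing libraries. The log2 fold change of VIRMA, VIRMA-overexpressing minus control, was 2.29 ± 0.07 (SE). The 6 markers of this line that were looked up were all tested, with ERBB2 at 650.9 to 701.1 RPKM (counts scaled by exonic length and by the library total), and 4 markers of other cell types or of hormone receptor-positive cells had 0 to 48 counts per library. The mitochondrial share of counts was 11.4% and 11.6% in the control libraries and 12.8% in both VIRMA-overexpressing libraries. Without these genes every call on the 10 heat shock response genes was kept.

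Chaperone genes of the cytosolic response were lower in VIRMA-overexpressing cells. At an adjusted p below 0.05 in the quasi-likelihood test of edgeR, 9 of the 10 genes were lower (8 with library totals in place of TMM, where DNAJB1 lost its call and direction) and 1, HSF1, was higher, whereas 35.9% of all tested genes were lower and 35.1% higher by the same rule. With a further requirement of a log2 fold change below -1 or above 1, 6 genes were lower (5 with upper-quartile factors or library totals, where HSPH1 missed the threshold) and 0 higher, beside 2.93% and 4.52% of all tested genes. In CPM (counts divided by the TMM-adjusted library size) the values of the groups did not overlap for any of the 10 genes, 9 lower and 1 higher, beside 41.6% and 42.7% of all tested genes. The median log2 fold change of the 10 genes was -1.09, and that of all tested genes was 0.01. The calls for HSF1 and DNAJB1 rest on small differences and were lost in some settings, as described with each gene. These are shares of RNA in whole cultures, in which fewer cells with a transcript and less of it per cell cannot be told apart.

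**Figure D1:**
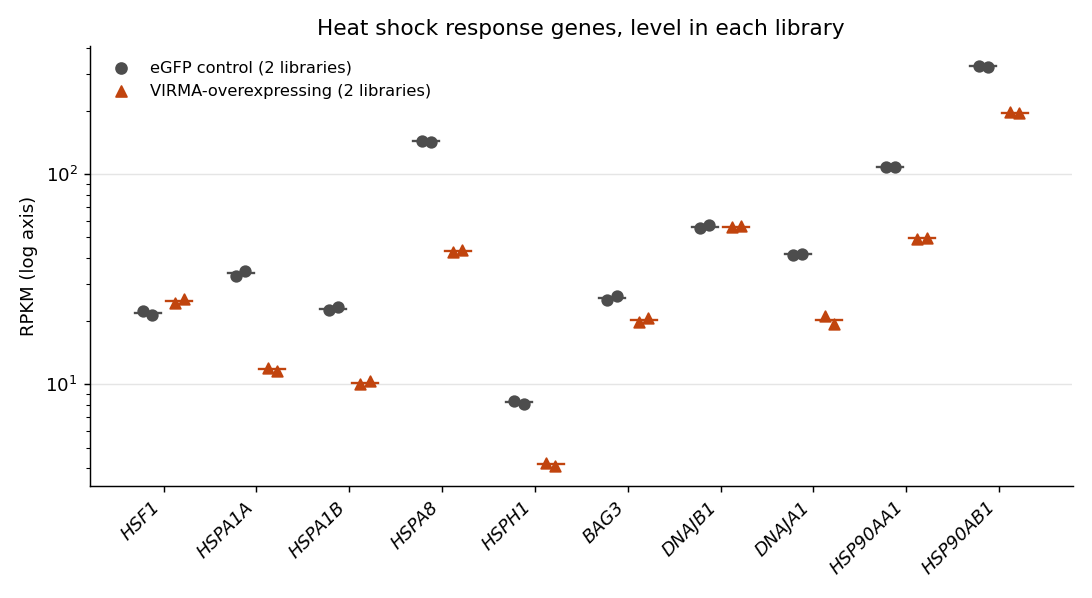
RPKM on a log axis for each of the 10 genes in the 2 eGFP control libraries (circles) and the 2 VIRMA-overexpressing libraries (triangles), with the group mean as a line. HSPA8 falls from 144.5 and 141.5 to 42.8 and 43.4, while the DNAJB1 points of the groups lie at the same height.

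The summed level of the 10 genes was 0.207% and 0.204% of all transcripts per length (computed from TPM values) in the control libraries and 0.114% and 0.113% in the VIRMA-overexpressing libraries. The sum in the control cells was 1.81 times that in the VIRMA-overexpressing cells. The largest falls in level were those of the most abundant genes. From control to VIRMA-overexpressing cells, mean RPKM went from 325.3 to 195.7 for HSP90AB1, from 143 to 43.1 for HSPA8 and from 108.2 to 49.4 for HSP90AA1. Scarcer genes such as HSPH1 (8.23 to 4.16) also fell but weigh little in the sum, and DNAJB1 (56.2 and 56.1) hardly differed.

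Heat shock elements, the binding motif of HSF1, were looked up in the RefSeq promoter windows of the genes, because the genes were grouped by their known regulation and not by sequence. A window ran from 250 bases before to 50 bases after a transcription start on GRCh38.p14, and 9 of the 10 genes had 14 windows. HSF1 had no entry. The motif searched was 3 alternating units of GAA and TTC spaced by 2 bases, that is GAANNTTC followed after 2 bases by GAA, or TTCNNGAA followed after 2 bases by TTC, and the pair covers both strands. The shorter motif had 2 units, GAANNTTC or TTCNNGAA, and every 3-unit match contains 2 of these. Stretches that hold the 3-unit matches, and for genes without one a stretch with 2-unit matches, are printed 5′ to 3′ on the strand of the gene, with the 3-unit matches (HSPA8, HSP90AA1, HSP90AB1, DNAJA1) or 2-unit matches (HSPA1A, HSPA1B, DNAJB1) in capitals. Positions are counted from the transcription start of the window.
HSPA8, distal, chr11:123062346-123062375, minus strand: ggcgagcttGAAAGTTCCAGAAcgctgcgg
HSPA8, proximal, chr11:123062171-123062200, minus strand: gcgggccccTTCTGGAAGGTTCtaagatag
HSP90AA1, chr14:102087112-102087141, minus strand: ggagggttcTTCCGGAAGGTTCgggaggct
HSP90AB1, chr6:44247769-44247852, plus strand: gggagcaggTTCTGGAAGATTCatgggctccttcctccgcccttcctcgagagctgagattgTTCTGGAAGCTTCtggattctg
DNAJA1, chr9:33025267-33025296, plus strand: cgccgggcgGAACTTTCCAGAAcgctcggt
HSPA1A, chr6:31815323-31815462, plus strand: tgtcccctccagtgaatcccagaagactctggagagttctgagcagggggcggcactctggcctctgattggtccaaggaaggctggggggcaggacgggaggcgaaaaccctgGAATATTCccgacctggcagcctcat
HSPA1B, chr6:31827519-31827658, plus strand: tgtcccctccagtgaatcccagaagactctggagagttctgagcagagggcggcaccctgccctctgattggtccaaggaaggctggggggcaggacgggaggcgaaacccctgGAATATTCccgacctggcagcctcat
DNAJB1, chr19:14518421-14518507, minus strand: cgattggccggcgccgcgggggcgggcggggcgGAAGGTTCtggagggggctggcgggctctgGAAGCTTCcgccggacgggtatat

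The 3-unit motif stood in windows of 4 genes. HSPA8 had 2 matches, at -230 to -218 and at -55 to -43, both within annotated exons, as was the whole window. The start of that window lies downstream of the first annotated base of HSPA8. HSP90AA1 had 1 match at -88 to -76 in the window of its downstream start (102087044), and its window at 102139749 held neither motif. HSP90AB1 had 2 matches, at -165 to -153 and at -112 to -100, both in the window of the third of its 3 starts, which lies downstream of the gene's first annotated base. The match of DNAJA1 lay past the start, at 3 to 15. HSPA1A, HSPA1B and DNAJB1 held the 2-unit motif and no 3-unit match. The printed DNAJB1 matches belong to the start at 14518397, and a further match lay at 1 to 8 of a start not printed (14517937). The window of the most upstream DNAJB1 start, at 14529271, held neither motif. In the windows of HSPH1 and BAG3 neither motif was found. The search took exact matches only, so elements with a mismatched unit or other spacing were not counted.

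The 3-unit motif was found in 172 of 35116 RefSeq promoter windows, 0.49% (exact binomial 95% interval 0.419% to 0.568%), and the 2-unit motif in 13.5%. Among the genes with 3-unit matches the log2 fold changes were -1.82 for HSPA8, -1.21 for HSP90AA1, -1.11 for DNAJA1 and -0.82 for HSP90AB1. Among those with a window and no such match they were -1.61 for HSPA1A, -1.25 for HSPA1B, -1.07 for HSPH1, -0.43 for BAG3 and -0.08 for DNAJB1, so the ranges overlapped. Over the 7990 tested genes with a window, the 38 with the motif had a median log2 fold change of -0.10 and the other 7952 had -0.03. The 38 include HSPA8, HSP90AA1, DNAJA1 and HSP90AB1, and the 7952 include the other heat shock response genes with a window, so neither median is independent of the genes described here.

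**Figure D2:**
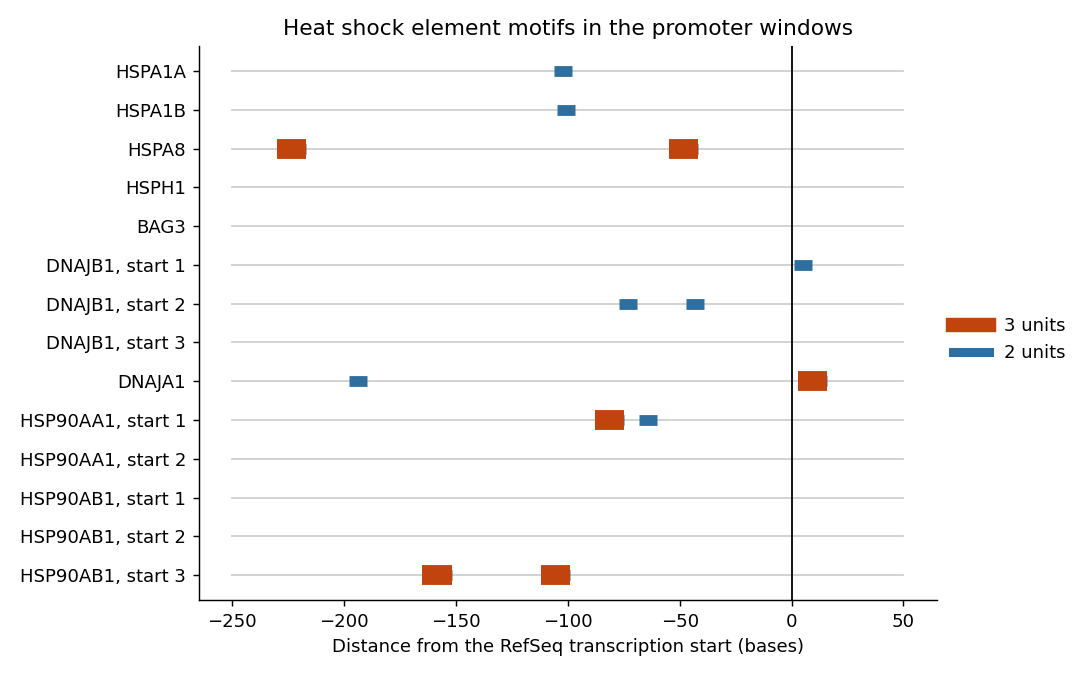
Positions of heat shock element motifs in the 14 RefSeq promoter windows of 9 genes, in bases from the transcription start (vertical line); wide bars are 3-unit matches and narrow bars 2-unit matches. The 3-unit matches lie in windows of HSPA8, DNAJA1, HSP90AA1 and HSP90AB1, and the lines of HSPH1 and BAG3 are empty. Starts are numbered by rising coordinate, so for HSP90AA1 and DNAJB1, on the minus strand, start 1 is the most downstream.

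HSF1, the regulator of the response (GRCh38 chromosome 8, 144291591 to 144314722, plus strand), had 122.8 and 117.6 CPM in the control libraries and 126 and 132.4 CPM in the VIRMA-overexpressing libraries. The values did not overlap, but the lower VIRMA-overexpressing library lay close to the higher control library. The log2 fold change was 0.10 ± 0.04 (SE, adjusted p = 0.0105, edgeR). It was 0.07 without control replicate 2 (adjusted p = 0.123) and 0.07 without VIRMA-overexpressing replicate 2 (adjusted p = 0.169), so the call was lost without either library. It was also lost under each of the 3 other filters on low counts, where the estimate was 0.061 to 0.075. HSF1 shares 139 exonic bases, 2.62% of its exonic length, with DGAT1 on the opposite strand, whose log2 fold change was -0.32. Whether the authors' counting used strand is not given in the sources used here, and the part of such overlaps was not tested.

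The tested genes nearest to HSF1 over the 4 libraries, by the distance between log2 CPM values centred on each gene's mean, were CD40 (0.00829), RAP1GAP2 (0.0110) and CDV3 (0.0114). Their log2 fold changes were 0.10, 0.10 and 0.11.

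HSPA8, the constitutive cytosolic HSP70 (chromosome 11, 123057489 to 123063230, minus strand), had the largest change of the 10 genes. It had 726.4 and 715.2 CPM in the control libraries and 202.9 and 206.8 CPM in the VIRMA-overexpressing libraries, far apart against a spread of a few CPM within each group. The log2 fold change was -1.82 ± 0.03 (SE, adjusted p = 1.15e-33, edgeR), and the level was 3.52-fold higher in the control cells. Of the 12205 tested genes, 46 had a lower log2 fold change. The small nucleolar RNA genes SNORD14C and SNORD14D, which lie within HSPA8 on the same strand, were listed with 0 counts in all libraries.

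HSPA1A and HSPA1B, neighbouring genes that encode the stress-inducible HSP70, fell as well. HSPA1A (chromosome 6, 31815464 to 31817946, plus strand) had 84.4 and 90.1 CPM in the control libraries and 29 and 28.3 CPM in the VIRMA-overexpressing libraries. Its log2 fold change was -1.61 ± 0.05 (SE, adjusted p = 2.74e-26, edgeR), with 68 tested genes below it. HSPA1B (chromosome 6, 31827735 to 31830255, plus strand) had 59.1 and 61.1 CPM in the control libraries and 24.7 and 25.8 CPM in the VIRMA-overexpressing libraries. HSPA1B had a log2 fold change of -1.25 ± 0.05 (SE, adjusted p = 5.62e-22, edgeR).

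The 2 inducible genes are near copies, and the split of reads between them is uncertain. Of all stretches of 150 bases, the read length of the study, 69.6% in the HSPA1A transcript and 66.1% in the HSPA1B transcript stood unchanged in the other. The printed promoter stretches of HSPA1A and HSPA1B were identical at 136 of 140 bases (97.1%), including the 2-unit motif. With the counts of both genes summed into 1 row the log2 fold change was -1.45, so the direction does not rest on the split. For the other 8 genes, 1 transcript each was searched, and no stretch of that length stood in the same orientation in a transcript of another gene. Overlaps with genes on the opposite strand were not part of that search and are given with each gene. Rows of annotated pseudogenes held at most 0.502% of their parent's counts in any library.

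Over the 4 libraries, the tested genes nearest to HSPA1A were PCNA at a distance of 0.0837, PAQR4 at 0.0852 and CHRNA5 at 0.0862. Their log2 fold changes were -1.60, -1.59 and -1.68.

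The ratio of inducible to constitutive HSP70, taken as the RPKM of HSPA1A plus HSPA1B over that of HSPA8, does not depend on scaling between libraries. Its size depends on the exonic lengths and on how reads shared by HSPA1A and HSPA1B were counted. The log2 change of the ratio between groups was 0.363 with RPKM and 0.365 with raw counts. It was 0.383 and 0.41 in the control libraries and 0.514 and 0.507 in the VIRMA-overexpressing libraries. The ratio was thus higher in VIRMA-overexpressing cells, since the constitutive gene fell further than the inducible ones, and the groups did not overlap. With 2 libraries against 2, the exact two-sided permutation test gave p = 0.33, the smallest it can give.

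HSPH1 and BAG3 encode nucleotide exchange factors that act on HSP70. HSPH1, the cytosolic HSP110 (chromosome 13, 31134974 to 31162388, minus strand), had 72.8 and 70.7 CPM in the control libraries and 34.6 and 33.9 CPM in the VIRMA-overexpressing libraries. Its log2 fold change was -1.07 ± 0.05 (SE, adjusted p = 2.95e-21, edgeR). BAG3, which links HSP70 to small heat shock proteins and selective autophagy (chromosome 10, 119651370 to 119677819, plus strand), had 72 and 75 CPM in the control libraries and 53.3 and 55.6 CPM in the VIRMA-overexpressing libraries. BAG3 had a log2 fold change of -0.43 ± 0.04 (SE, adjusted p = 2.87e-11, edgeR), and 17.4% of tested genes lay below it, against 2.66% for HSPH1. BAG3 thus fell by less than the fold change threshold, while HSPH1 passed it narrowly and missed it with upper-quartile factors (-0.995) and with library totals (-0.98).

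The J-domain genes DNAJA1 and DNAJB1 had changes of different size. DNAJA1, a type I J-domain protein that works with HSPA8 (chromosome 9, 33025211 to 33039907, plus strand), had 116.9 and 118.7 CPM in the control libraries and 56.7 and 52.1 CPM in the VIRMA-overexpressing libraries. Its log2 fold change was -1.11 ± 0.04 (SE, adjusted p = 4.39e-23, edgeR). DNAJB1, the type II J-domain protein known as HSP40 that is induced by heat shock and feeds back on HSF1 (chromosome 19, 14514770 to 14529770, minus strand), had 210.4 and 218.4 CPM in the control libraries and 200.6 and 203.7 CPM in the VIRMA-overexpressing libraries. For DNAJB1 the log2 fold change was -0.08 ± 0.03 (SE, adjusted p = 0.0184, edgeR), with a 95% interval of -0.15 to -0.02.

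The small difference of DNAJB1 depended on scaling. With library totals in place of TMM its log2 fold change was 0.001 (adjusted p = 0.982), and its RPKM values, which use library totals, overlapped at 55.3 and 57.1 in the control libraries and 55.9 and 56.4 in the VIRMA-overexpressing libraries. The adjusted p was 0.183 without control replicate 2 (log2 fold change -0.06) and 0.108 without VIRMA-overexpressing replicate 1 (log2 fold change -0.07). DNAJB1 shares 228 exonic bases, 6.21% of its exonic length, with TECR on the opposite strand, whose counts were 18752 and 18114 in the control libraries and 14954 and 14765 in the VIRMA-overexpressing libraries. The ratio of HSPA8 to DNAJB1, chosen after their values were seen, was 2.61 and 2.48 in the control libraries and 0.766 and 0.769 in the VIRMA-overexpressing libraries.

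HSP90AA1 and HSP90AB1 encode the stress-inducible and the constitutive cytosolic HSP90. HSP90AA1 (chromosome 14, 102080738 to 102139699, minus strand) had 588.6 and 591.7 CPM in the control libraries and 252.7 and 256.4 CPM in the VIRMA-overexpressing libraries. Its log2 fold change was -1.21 ± 0.03 (SE, adjusted p = 1.32e-28, edgeR). HSP90AB1 (chromosome 6, 44246166 to 44253888, plus strand) had 1010.7 and 1004.4 CPM in the control libraries and 574.6 and 569.8 CPM in the VIRMA-overexpressing libraries. The log2 fold change of HSP90AB1 was -0.82 ± 0.03 (SE, adjusted p = 1.40e-24, edgeR), short of the fold change threshold.

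Within the HSP90 genes it was the inducible member that fell further, opposite to the order in HSP70. The RPKM ratio of HSP90AA1 to HSP90AB1 was 0.331 and 0.335 in the control libraries and 0.25 and 0.256 in the VIRMA-overexpressing libraries. The groups did not overlap, and the exact two-sided permutation p was again 0.33. HSP90AA1 shares 197 exonic bases with WDR20 on the opposite strand, whose counts were at most 9.55% of those of HSP90AA1 in any library.

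**Figure D3:**
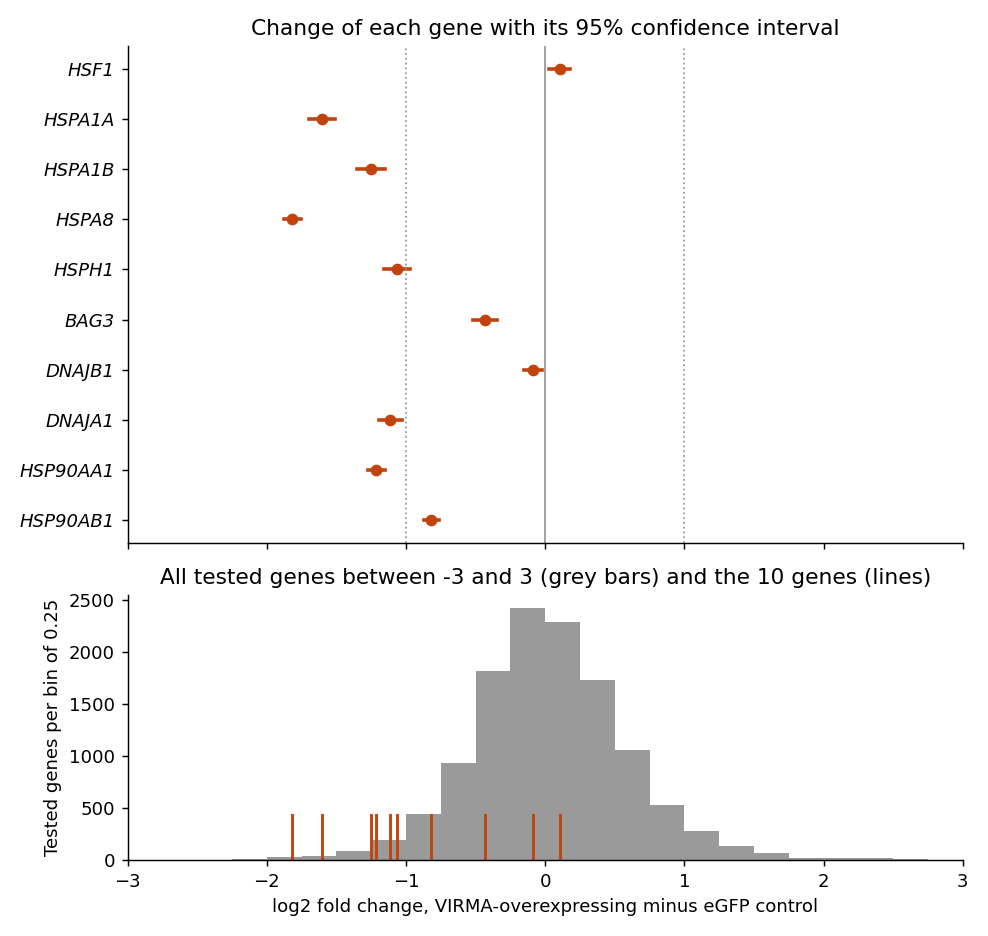
Top, log2 fold change (VIRMA-overexpressing minus eGFP control) of each gene with its 95% confidence interval from the fit, dotted lines at -1 and 1. Bottom, all tested genes between -3 and 3 in bins of 0.25 (bars) with the 10 genes as lines, of which 6 lie below -1 and 1, HSF1, lies above 0.

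Compared per length, the order of levels changed between the groups. In control cells HSP90AB1 was highest at a mean of 325.3 RPKM, followed by HSPA8 (143 RPKM), HSP90AA1 (108.2 RPKM), DNAJB1 (56.2 RPKM), DNAJA1 (41.5 RPKM), HSPA1A (33.8 RPKM), BAG3 (25.7 RPKM), HSPA1B (22.9 RPKM), HSF1 (21.8 RPKM) and HSPH1 (8.23 RPKM). In VIRMA-overexpressing cells HSP90AB1 was still highest at 195.7 RPKM and HSPH1 lowest at 4.16 RPKM. DNAJB1 (56.1 RPKM) stood second there, above HSP90AA1 (49.4 RPKM) and HSPA8 (43.1 RPKM), and HSF1 (24.8 RPKM) stood at rank 5. Of all neighbours in either order, DNAJA1 and BAG3 in VIRMA-overexpressing cells overlapped, with 21.2 and 19.4 RPKM against 19.8 and 20.6 RPKM. HSPA1B and HSF1 in control cells lay close, with 22.6 and 23.3 RPKM against 22.3 and 21.3 RPKM. The order rests on exonic lengths, which exceed the length of a single GENCODE transcript by unequal amounts. They were 5307 against 2134 bases for HSF1, 4849 against 2264 for HSPA8 and 2483 against 2400 for HSPA1A. Ranks between genes could differ with transcript lengths, whereas the change of a gene between groups does not depend on its length.

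The inducible HSP70 gene HSPA6, which is nearly silent in unstressed cells, was too low to be tested. It had 48 and 50 counts in the control libraries and 72 and 83 in the VIRMA-overexpressing libraries. In a fit without a filter on low counts its log2 fold change was 0.61 ± 0.35 (SE, adjusted p = 0.22, edgeR). HSPA6 is named outside the rule for named genes, after its values were seen.

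The other genes of cytosolic folding, 63 in 8 lists, were counted in the same way, and 52 of them were tested. Of these, 34 (65.4%) were lower, 6 were higher and 12 did not pass, beside the 35.9% lower and 35.1% higher among all tested genes. Their median log2 fold change was -0.41, between that of all tested genes and that of the heat shock response genes. With the fold change threshold 2 were lower and 0 higher.

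All 8 subunits of TRiC, the ring-shaped chaperonin that folds actin and tubulin, were lower, with log2 fold changes of -0.71 to -0.35 and a median of -0.58. CCT3 (-0.71) and TCP1 (-0.66) had the largest changes. Of 16 tested HSP90 and HSP70 cochaperones, 12 were lower and 1, CDC37L1, was higher (0.38). The immunophilin FKBP5 had 15.6 and 14 CPM in the control libraries and 5.63 and 4.77 CPM in the VIRMA-overexpressing libraries, a log2 fold change of -1.51, and CACYBP, a calcyclin-binding protein, had -1.08. The median of the cochaperones was -0.49.

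Of 4 tested small heat shock protein genes, 3 were lower, and 2 were lower without control replicate 2 or without VIRMA-overexpressing replicate 2. HSPB1, the abundant holdase HSP27, had 2285.3 and 2347 CPM in the control libraries and 1424.8 and 1456.7 CPM in the VIRMA-overexpressing libraries (log2 fold change -0.68). HSPB8, the small heat shock protein that BAG3 binds, had 3.31 and 4.09 CPM in the control libraries and 2.64 and 2.56 CPM in the VIRMA-overexpressing libraries (-0.51). UBB, which supplies ubiquitin under stress, was also lower (-0.74).

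The further members of the HSP70 cycle were mixed. Of 6 other HSP70 and HSP110 genes 3 were tested and all 3 were lower, led by HSPA4L (-0.72) and HSPA14 (-0.55). Of 10 tested J-domain genes 3 were lower, among them DNAJA4 (-0.96) and DNAJC9 (-0.52), 2 were higher, DNAJC7 (0.38) and DNAJB2 (0.21), and 5 passed in neither direction. Scaling by library totals or by upper quartiles made 4 higher. Of 5 tested BAG domain and exchange factor genes HSPBP1 (-0.70) and BAG1 (-0.62) were lower and 3 did not pass, and 1 was higher with upper-quartile factors, with library totals or without control replicate 2. Among the other heat shock factors and their inhibitors, HSF4 (0.77) and HSBP1L1 (0.63) were higher and HSBP1, which binds the trimer of HSF1 (-0.45), was lower, with 3 higher and 1 lower in all.

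**Figure D4:**
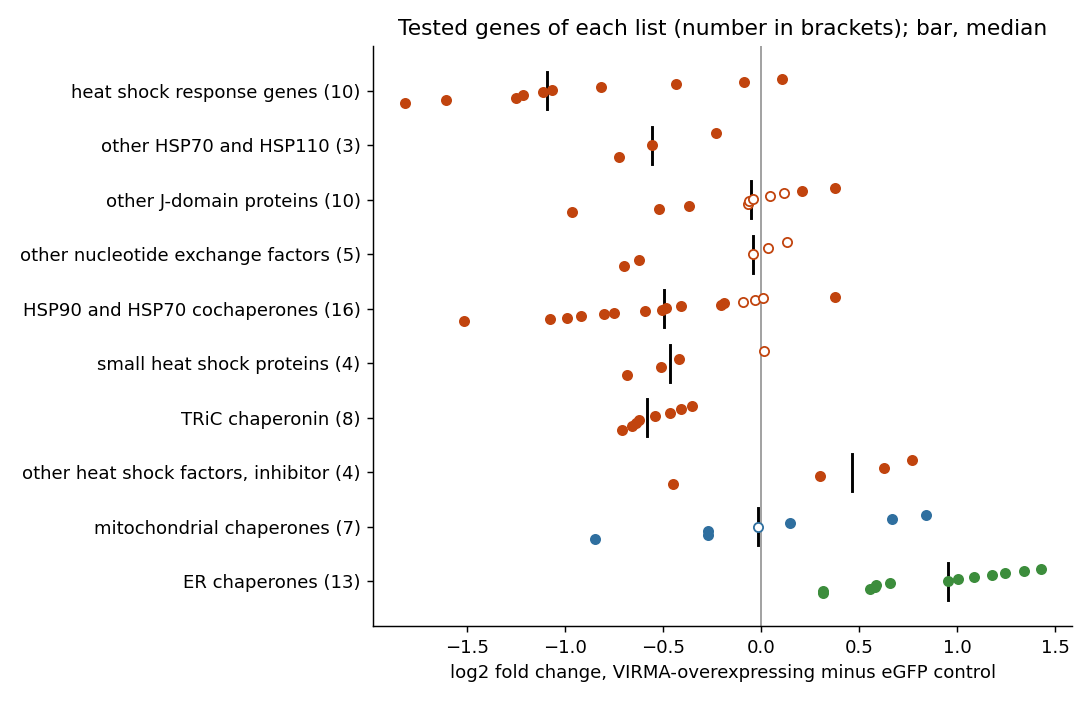
Log2 fold change (VIRMA-overexpressing minus eGFP control) of every tested gene in each list shown, with the number tested in brackets and the list median as a black bar; filled points passed an adjusted p of 0.05 and open points did not. The medians run from -1.09 in the heat shock response genes to 0.95 in the ER chaperones.

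The ER chaperones moved in the opposite direction. All 13 were tested and all 13 were higher, 6 of them past the fold change threshold, with a median log2 fold change of 0.95 and a range of 0.32 to 1.43. HSPA5 (BiP), the ER counterpart of HSPA8, had 555 and 553.4 CPM in the control libraries and 1492.1 and 1487.4 CPM in the VIRMA-overexpressing libraries, a log2 fold change of 1.43 ± 0.03 (SE, adjusted p = 3.78e-32, edgeR). HSP90B1 (GRP94), the ER form of HSP90, had a log2 fold change of 1.08, HYOU1, the ER form of HSP110, had 1.24 and DNAJB9, an ER J-domain protein, had 1.34. The summed level of the 13 ER genes was 0.259% and 0.253% of all transcripts per length in the control libraries and 0.478% and 0.473% in the VIRMA-overexpressing libraries.

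Ratios of cytosolic genes to their ER counterparts within each library set these directions side by side. They were chosen after the values were seen and are free of scaling between libraries, but their size within a library rests on the exonic lengths. The RPKM of HSPA8 was 1.05 and 1.04 times that of HSPA5 in the control libraries and 0.11 and 0.112 times that of HSPA5 in the VIRMA-overexpressing libraries, a 9.46-fold lower mean. HSP90AA1 plus HSP90AB1 stood at 4.34 and 4.3 times HSP90B1 in the control libraries and at 1.09 and 1.08 times in the VIRMA-overexpressing libraries. HSPH1 stood at 0.298 and 0.306 times HYOU1 in the control libraries and at 0.0599 and 0.0619 times in the VIRMA-overexpressing libraries. Each of these ratios was lower in both VIRMA-overexpressing libraries, and each exact two-sided permutation p was 0.33, the smallest possible.

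**Figure D5:**
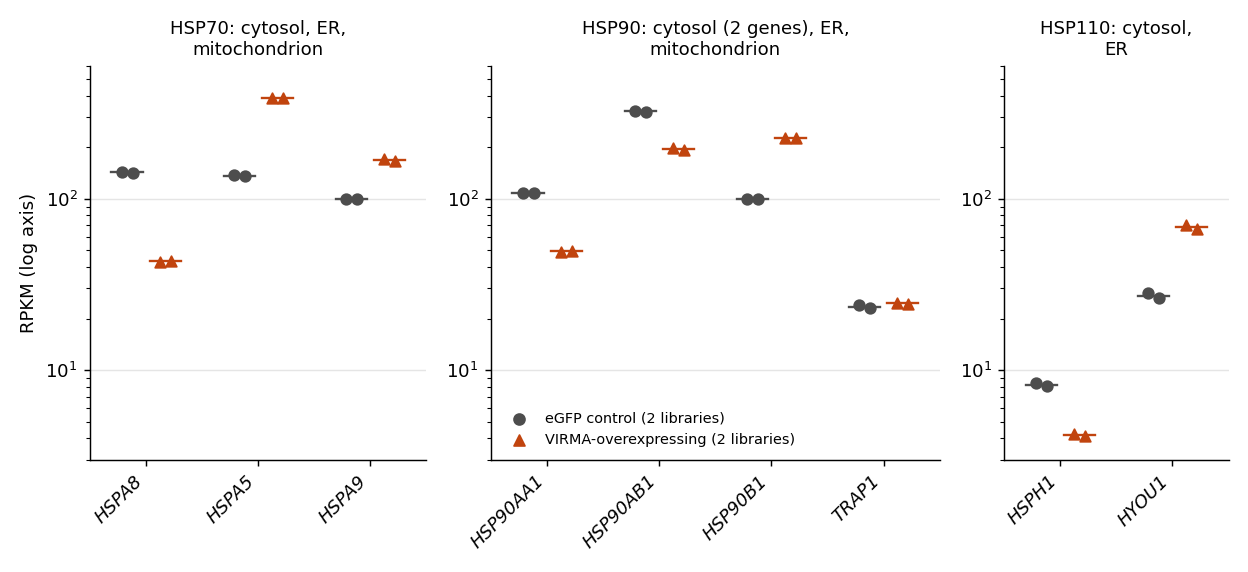
RPKM on a log axis of cytosolic chaperones and their ER and mitochondrial counterparts in the 2 eGFP control libraries (circles) and the 2 VIRMA-overexpressing libraries (triangles), with group means as lines. HSPA8 and HSPA5 stand at 143 and 136.4 RPKM in control cells and at 43.1 and 388.6 RPKM in VIRMA-overexpressing cells.

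The mitochondrial chaperones followed neither direction as a group. Of 7 tested, 3 were higher, 3 were lower and 1 did not pass, with a median of -0.01. HSPA9 (mortalin), the mitochondrial HSP70, had a log2 fold change of 0.67, against -1.82 for HSPA8. HSPA8 stood at 1.44 and 1.42 times HSPA9 in the control libraries and at 0.251 and 0.261 times in the VIRMA-overexpressing libraries. The ratios to HSPA9 and TRAP1, like those to the ER genes, were not planned before the values were seen. TRAP1, the mitochondrial HSP90, had 129.6 and 124.7 CPM in the control libraries and 126.4 and 125.5 CPM in the VIRMA-overexpressing libraries, a log2 fold change of -0.01 with a 95% interval of -0.08 to 0.06. HSP90AA1 plus HSP90AB1 stood at 18.2 and 18.9 times TRAP1 in the control libraries and at 9.97 and 10 times in the VIRMA-overexpressing libraries. GRPEL2, a mitochondrial nucleotide exchange factor, had 0.84 and HSPE1, the cochaperonin HSP10, had -0.85.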

How the data were processed

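Poly-A RNA of the 4 libraries was sequenced as stranded paired-end reads. Per the study's methods and the submitters' processing notes, the authors trimmed reads with Trimmomatic 0.39, aligned them to hg38 with STAR 2.5.2a and counted them with featureCounts, and deposited raw counts per gene with exonic lengths. Strand use and treatment of reads with several alignments are not given in the sources used here. In the table, numbered columns without a group name were taken to be the VIRMA-overexpressing libraries, since the other columns name the control.

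RPKM was computed from counts, library totals and exonic lengths, and genes with RPKM above 1 in at least 2 libraries were tested. The main test was the quasi-likelihood F test in edgeR 4.0.16 (R 4.3.3) on raw counts with TMM factors and a group term. P-values were adjusted over all tested genes by the Benjamini-Hochberg method. The script was tested on simulated data. The spread within groups is that of 2 libraries each. Same-numbered libraries did not deviate together (r = 0.035 across genes), so no pairing was used. Replicates differed beyond sampling noise (chi-square per degree of freedom 7.87 in the control and 6.18 in the VIRMA-overexpressing libraries).

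The members and lists were chosen with earlier results of these data known. Named were all members, VIRMA, the nearest genes to HSF1 and HSPA1A, fixed ER and mitochondrial counterparts, and from each list at most the 2 largest changes per direction at an adjusted p below 0.05. Exon overlaps were read from the deposited exon coordinates, and transcripts and exons of the promoter stretches from GENCODE. Proteins were not analysed here, and 1 gene of the wider lists is counted but not reported here. Alternatives were DESeq2 1.42.0, limma-voom (limma 3.58.1), 3 other scalings, 3 other filters, a replicate block, HSPA1A and HSPA1B summed, mitochondrial genes left out, and each library left out.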

Additional observations from a re-analysis of the deposited data

How the results depend on the processing

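Of the 10 genes, 8 kept both direction and call at the adjusted p under all 15 alternatives to the fit, as did VIRMA, but HSPH1 (-1.07) missed the fold change threshold with upper-quartile factors (-0.995) and library totals (-0.98), leaving 5 genes lower past both thresholds. HSF1 (0.10) was no longer called with filterByExpr (0.061, adjusted p = 0.188), without a filter (0.071, adjusted p = 0.177) or with at least 10 counts in every library (0.075, adjusted p = 0.0838), so 0 genes were then higher; these filters tested more genes and moved the genes shared with the reported fit by -0.044, -0.034 and -0.03. DNAJB1 (-0.08) was not called with upper-quartile factors (-0.013, adjusted p = 0.719) and reversed with library totals (0.001, adjusted p = 0.982), which moved all genes by 0.072 and 0.086. Leaving out each library in turn gave 0.069 to 0.14 for HSF1, -0.116 to -0.058 for DNAJB1, -1.129 to -1.052 for the median and 0 to 1 genes higher; a library left alone was assumed to vary like the other group. The median of -1.09 was -1.018 with upper-quartile factors, -1.004 with library totals, -1.133 with filterByExpr, -1.124 without a filter, -1.119 with at least 10 counts and -1.066 with HSPA1A and HSPA1B summed. All tested genes past both thresholds numbered 552 higher and 358 lower, against 1044 and 808 with filterByExpr, 1137 and 820 without a filter and 930 and 689 with at least 10 counts. Past both thresholds rather than the adjusted p alone were 6 of the 10 genes. With 2 units in place of 3 the motif was in 13.5% of promoter windows. In a fit that added the replicate block, 9 genes were lower and 1 higher, 4358 and 4454 of all tested genes were higher and lower, and no call among the 10 genes changed. Same-numbered libraries share only a number.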

Other observations

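Several genes of the cytosolic lists fell under the filter on low values and were given no test in the report. They are named here after their values were seen, with log2 fold changes from a fit without a filter and adjusted p from edgeR. HSPA2, an HSP70 best known from the testis, had 493 and 417 counts in the control libraries and 79 and 111 in the VIRMA-overexpressing libraries (log2 fold change -2.31 ± 0.19 (SE), adjusted p = 4.07e-33). HSPA1L, the HSP70 gene beside HSPA1A on the opposite strand, had 89 and 108 counts in the control libraries and 60 and 53 in the VIRMA-overexpressing libraries (-0.86 ± 0.32 (SE), adjusted p = 0.0253). DNAJB5, a J-domain gene, had 70 and 68 counts in the control libraries and 208 and 135 in the VIRMA-overexpressing libraries (1.25 ± 0.27 (SE), adjusted p = 1.24e-05). HSPA2 and HSPA1L were thus lower and DNAJB5 was higher, with a wide gap between its 2 VIRMA-overexpressing libraries.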
